A study of Mus musculus with 12 samples.

Results

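Infarcted mouse hearts given vehicle were compared with hearts of sham-operated mice, using 8 of the 12 libraries of the series and every gene that could be tested, 14906 of the 16218 in the table. Members were chosen by the treatment label alone, with no measured value. The sham group (4 libraries, replicates 2, 3, 4 and 5) came from operated animals without infarction. The other group (MI+PBS, 4 libraries, replicates 1, 2, 3 and 5) came from animals whose left anterior descending coronary artery was tied permanently and which carry the vehicle label PBS, phosphate-buffered saline, with no route or volume stated. All were wild-type females of 12 weeks, and no source used here names the strain. The labels place the RNA at 2 weeks after infarction and name the tissue only as heart, without saying whether infarct, border or remote wall was taken. The design text states 4 animals per group, and a further group of infarcted wild-type animals that it lists was not analysed here. Poly-A RNA was read as 61 bp single reads.

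After a coronary artery is closed for good, the muscle it fed dies, is cleared by neutrophils and macrophages and is replaced by a collagen scar laid down by fibroblasts that turn into myofibroblasts. The surviving muscle carries more load, takes up part of a fetal gene programme and burns less fat. At 2 weeks the mouse infarct is past the main wave of inflammation and its scar is maturing. In RNA from whole tissue, fewer cells of a type and less RNA per cell cannot be told apart, and this holds for every result here.

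Values are normalized read counts, always listed by replicate in the order above. Differences are log2 fold changes, MI+PBS minus sham, with the standard error of limma's fit (n = 4 per group) and with Benjamini-Hochberg adjusted p-values over all genes tested. A gene is called higher or lower when its adjusted p is under 0.05.

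The tissue label was borne out by the muscle genes. The 14 cardiomyocyte identity markers together took 8.71% to 9.68% of all counts in the sham libraries and 5.92% to 7.94% in MI+PBS. Totals ran from 20238512 to 22513413 reads in the 7 of these libraries whose reads could be recovered. Sham replicate 2 stood apart in 2 tissue genes. It held 661 counts of Scgb1a1, a secretory protein of airway epithelium, against 0 to 1.06 in the other sham libraries, and 9.10 counts of Bmp10, a ligand of the right atrium, against 695 to 2257. Among MI+PBS libraries replicate 2 lay farthest from sham, at 51.49 on a principal component that held 52.9% of the variance of the 8 libraries, against 27.6 to 30.22 for the others. Counts for lists of genes are therefore also given without that library, or without sham replicate 2, wherever they moved by more than 1.5 times.

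Infarction went with a broad shift rather than a few large changes. The test called 6616 genes (44.4%), of which 3371 (22.6%) were higher and 3245 (21.8%) lower in MI+PBS. Of the 1026 genes (6.88%) called with at least 1 log2 unit of difference, 822 were higher (5.51% of genes tested) and 204 lower (1.37%), and 112 against 7 differed by more than 2 units. The median over all genes was -0.01. In 6248 genes (41.9%) the 4 libraries of one group lay entirely above those of the other, 3214 (21.6%) with MI+PBS higher and 3034 (20.4%) with MI+PBS lower.

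Direction went with level. Among the 643 genes whose mean reached 5000, 138 (21.5%) were higher and 284 (44.2%) lower. Among the 2544 genes with means between 5 and 50 the shares were 12.5% higher and 7.27% lower. The share of all counts taken by Myh6, which encodes the fast cardiac myosin heavy chain, was 2.83% ± 0.20 (SD, n = 4) in sham and 2.12% ± 0.38 in MI+PBS. That of Mb, the oxygen-binding protein myoglobin, was 1.26% ± 0.04 and 0.851% ± 0.09. Col3a1, the type III collagen of early scar, took 0.242% ± 0.06 and 0.615% ± 0.05.

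**Figure D1:**
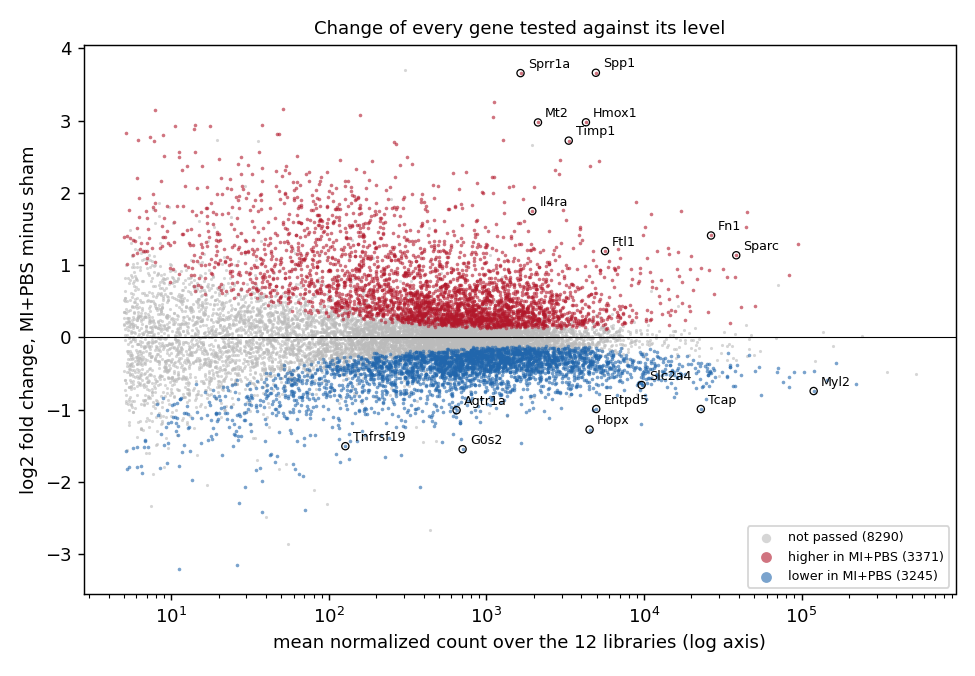
Log2 fold change of each of the 14906 genes tested (vertical axis) against its mean normalized count over the 12 libraries (horizontal log axis), with genes called higher in red, lower in blue and the others grey. The highest points lie near 3.7 log2 units and include Sprr1a and Spp1. Of the 643 genes with a mean of at least 5000, 21 were called higher by at least 1 log2 unit, Fn1 and Sparc among them. Only 1 of the 643 was called lower by that much, and Myl2 lies within 1 unit of 0.

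The 10 rises with the smallest p-values were those of Hmox1, Il4ra, Atf3, Emb, Timp1, Sbno2, Adam8, Mt2, Ftl1 and Cmip, of which Hmox1, Mt2 and Ftl1 handle haem, metals or iron. Hmox1, the enzyme that breaks down haem, stood at 789, 1052, 814 and 612 in sham and at 6919, 6846, 6113 and 5511 in MI+PBS. The lowest infarcted heart held 5511 counts and the highest sham heart 1052, and the difference was 2.98 ± 0.13 (adjusted p = 1.53e-07). Ftl1, the ferritin light chain that stores iron, stood at 3192, 3410, 2800 and 3376 in sham and at 7661, 8034, 6423 and 7148 in MI+PBS (1.19 ± 0.08, adjusted p = 4.55e-06). The heavy chain Fth1 did not follow it: its values of 28805 to 33936 in MI+PBS covered those of sham, 29656 to 31851 (0.07 ± 0.07, adjusted p = 0.459). Hmox1 lies on chromosome 8 from 75093621 to 75100589 and Ftl1 on chromosome 7 from 45457944 to 45459884 (mm10), and 34.6% of the exon bases of Ftl1 are shared with other gene models, so that its counts are uncertain.

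Metallothioneins, small proteins that bind zinc and copper, rose as a pair. Mt2 stood at 352, 391, 455 and 495 in sham and at 2680, 2595, 3525 and 4870 in MI+PBS, without overlap (2.98 ± 0.21, adjusted p = 4.55e-06). Mt1, which was added after its values were seen, stood at 1871, 2103, 1950 and 2067 in sham and at 4059, 3759, 6108 and 6466 in MI+PBS (1.31 ± 0.15, adjusted p = 4.75e-05). In both genes replicates 3 and 5 were the highest of the infarcted hearts. An antisense gene model covers 73.5% of the exon bases of Mt2, and no source used here gives the strand setting of the counting. The neighbouring promoters of both genes are shown because each holds several matches to the letters of the metal response element. That element is the site through which the zinc-sensing factor MTF1 is known to act. The sequences are from RefSeq, build GRCm38.p6, both on the plus strand, from 250 bases before to 50 after the start of each gene, and capitals mark matches of TGCGCNC or TGCACNC on either strand.
Mt2 (chr8:94172368-94172667): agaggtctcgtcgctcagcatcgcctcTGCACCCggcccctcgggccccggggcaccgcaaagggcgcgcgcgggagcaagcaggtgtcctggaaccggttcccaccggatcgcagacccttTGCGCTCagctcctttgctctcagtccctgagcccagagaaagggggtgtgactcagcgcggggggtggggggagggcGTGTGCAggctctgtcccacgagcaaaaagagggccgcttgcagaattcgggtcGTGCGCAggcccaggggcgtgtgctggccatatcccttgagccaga
Mt1 (chr8:94178839-94179138): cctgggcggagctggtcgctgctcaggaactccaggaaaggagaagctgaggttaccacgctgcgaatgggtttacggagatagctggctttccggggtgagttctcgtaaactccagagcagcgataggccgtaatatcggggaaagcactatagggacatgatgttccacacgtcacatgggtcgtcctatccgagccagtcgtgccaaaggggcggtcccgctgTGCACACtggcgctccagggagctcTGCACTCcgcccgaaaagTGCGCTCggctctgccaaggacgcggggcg
Mt2 holds 4 matches and Mt1 holds 3. The letters are common, with at least 1 match in 35.3% of the 10976 promoters of genes tested and in 28.2% of the 595 promoters of genes higher by at least 1 log2 unit, so a match is a description and not a site.

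Of the other genes among the 10, Il4ra, the receptor subunit for interleukins 4 and 13, stood at 812, 903, 953 and 827 in sham and at 2645, 3531, 2793 and 2825 in MI+PBS (1.75 ± 0.10, adjusted p = 1.7e-06). Timp1, an inhibitor of matrix metalloproteinases, stood at 812, 960, 663 and 866 in sham and at 4727, 6592, 5417 and 5060 in MI+PBS (2.72 ± 0.18, adjusted p = 3.92e-06). Both were highest in MI+PBS replicate 2, and neither overlapped between groups. Emb, an adhesion protein that escorts lactate transporters to the membrane, differed by 1.78 ± 0.12 and Sbno2, a co-regulator induced by interleukin 10, by 1.29 ± 0.09 (adjusted p = 3.92e-06 for each). The c-Maf-inducing protein gene Cmip had a small but even rise, from 693 to 757 in sham to 1239 to 1373 in MI+PBS (0.82 ± 0.06, adjusted p = 5.06e-06). None of the 10 genes overlapped between groups.

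Among abundant genes (mean of at least 1000), the 10 largest rises were those of Spp1, Sprr1a, Arg1, Nmrk2, Serpina3n, Tnc, Timp1, Hmox1, Mt2 and Adam8, and none overlapped between groups. Sprr1a, a small proline-rich protein induced in stressed cardiomyocytes, stood at 672, 114, 413 and 136 in sham and at 3028, 4393, 2451 and 3411 in MI+PBS (3.66 ± 0.60, adjusted p = 0.000446). Its sham values differed by more than 5 times among themselves. Nmrk2, a muscle kinase that makes NAD from nicotinamide riboside, stood at 334, 291, 322 and 298 in sham and at 1503, 5024, 1311 and 1838 in MI+PBS (2.73 ± 0.35, adjusted p = 0.000101). Here MI+PBS replicate 2 lay far above the other infarcted hearts, and the groups did not overlap. Tnc, the matrix protein tenascin C of healing wounds, stood at 1629, 1538, 956 and 1869 in sham and at 9844, 11888, 6416 and 5110 in MI+PBS (2.43 ± 0.36, adjusted p = 0.000208). Serpina3n, an acute-phase protease inhibitor, stood at 826, 780, 526 and 651 in sham and at 2543, 2126, 5662 and 6522 in MI+PBS (2.45 ± 0.32, adjusted p = 0.00011). In Serpina3n the order of the infarcted hearts was reversed, with replicates 3 and 5 high and replicate 2 lowest.

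The promoter of Sprr1a is shown because it holds 2 copies of the AP-1 letters TGANTCA, in capitals, which the factors of the Fos, Jun and ATF families bind. It is read on the minus strand (RefSeq, GRCm38.p6).
Sprr1a (chr3:92485832-92486131): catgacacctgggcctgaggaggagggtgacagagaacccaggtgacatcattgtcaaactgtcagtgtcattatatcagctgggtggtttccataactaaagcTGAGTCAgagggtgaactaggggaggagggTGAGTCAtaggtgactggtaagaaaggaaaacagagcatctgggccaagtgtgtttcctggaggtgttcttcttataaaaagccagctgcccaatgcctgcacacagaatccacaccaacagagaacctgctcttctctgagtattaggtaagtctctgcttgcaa
At least 1 match on either strand was found in 5.35% of all 10976 promoters, in 59 of the 595 promoters (9.92%) of genes higher by at least 1 log2 unit and in 41 of 784 (5.23%) of genes lower by at least 0.5. Atf3, which encodes a member of that family and is among the 10 strongest rises, stood at 214, 223, 204 and 247 in sham and at 824, 1001, 1347 and 1216 in MI+PBS (2.28 ± 0.14, adjusted p = 3.24e-06).

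Among the 10 falls of smallest p, Entpd5, an endoplasmic reticulum nucleotidase that helps glycoproteins fold, stood at 6997, 6438, 7847 and 7256 in sham and at 3864, 3394, 3420 and 3665 in MI+PBS (-0.99 ± 0.07, adjusted p = 6.38e-06). Every infarcted heart lay more than 2500 counts below every sham heart. Kcnj8 is the pore of an ATP-sensitive potassium channel found in pericytes and smooth muscle. It stood at 849 to 916 in sham and at 455 to 527 in MI+PBS (-0.89 ± 0.07, adjusted p = 8.45e-06). Of 7 markers of those cells, 2 were higher (28.6%, against 22.6% of all genes tested) and 3 lower (42.9%, against 21.8%). Their sums ran from 24028 to 25381 in sham and from 13836 to 19209 in MI+PBS. That list holds Kcnj8 itself and its channel partner Abcc9, which alone stood at 13340 to 14349 and at 5273 to 9085. Slc2a4, the insulin-responsive glucose transporter GLUT4 of muscle, stood at 11331, 11880, 12786 and 11713 in sham and at 7988, 6870, 7465 and 7921 in MI+PBS (-0.66 ± 0.06, adjusted p = 2.2e-05). The remaining falls of smallest p were those of Rhobtb2, Sdpr, a coat protein of caveolae, Actr3b, a subunit of the actin-nucleating Arp complex, Tcta, the sterol-binding protein Osbp2, Dhrs7c, a dehydrogenase of the sarcoplasmic reticulum, and Mfsd4. They ran from -0.62 to -1.10, and none of the 10 overlapped between groups.

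Among abundant genes the 10 largest falls held regulators and thin-filament genes of heart muscle. Hopx, a homeodomain cofactor of cardiomyocyte differentiation, stood at 7312, 5772, 7166 and 7601 in sham and at 4578, 2025, 2956 and 2441 in MI+PBS (-1.28 ± 0.24, adjusted p = 0.001). Tcap, the Z-disc protein telethonin that anchors titin, stood at 28133, 28946, 34679 and 32950 in sham and at 17344, 14985, 12838 and 17844 in MI+PBS (-0.99 ± 0.11, adjusted p = 4.59e-05). Lmod3, a nucleator of actin thin filaments, stood at 2744 to 3604 in sham and at 1571 to 1691 in MI+PBS (-1.01 ± 0.12, adjusted p = 7.17e-05). In Hopx MI+PBS replicate 1 lay nearest sham, whereas the Lmod3 values of the 4 infarcted hearts spanned 120 counts. Scd1, the desaturase that makes monounsaturated fat, stood at 2715 to 4046 in sham and at 1082 to 2188 in MI+PBS (-1.11 ± 0.32, adjusted p = 0.0132). The ephrin ligand Efnb3 (-1.03 ± 0.22) and the ephrin receptor Epha4 (adjusted p = 4.19e-05) were both among the 10, with Gm1078, Lrtm1, Sh3rf2 and the myosin kinase gene Mylk4. None of the 10 overlapped between groups, and 27.2% of the exon bases of Hopx are shared with an antisense gene model.

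**Figure D2:**
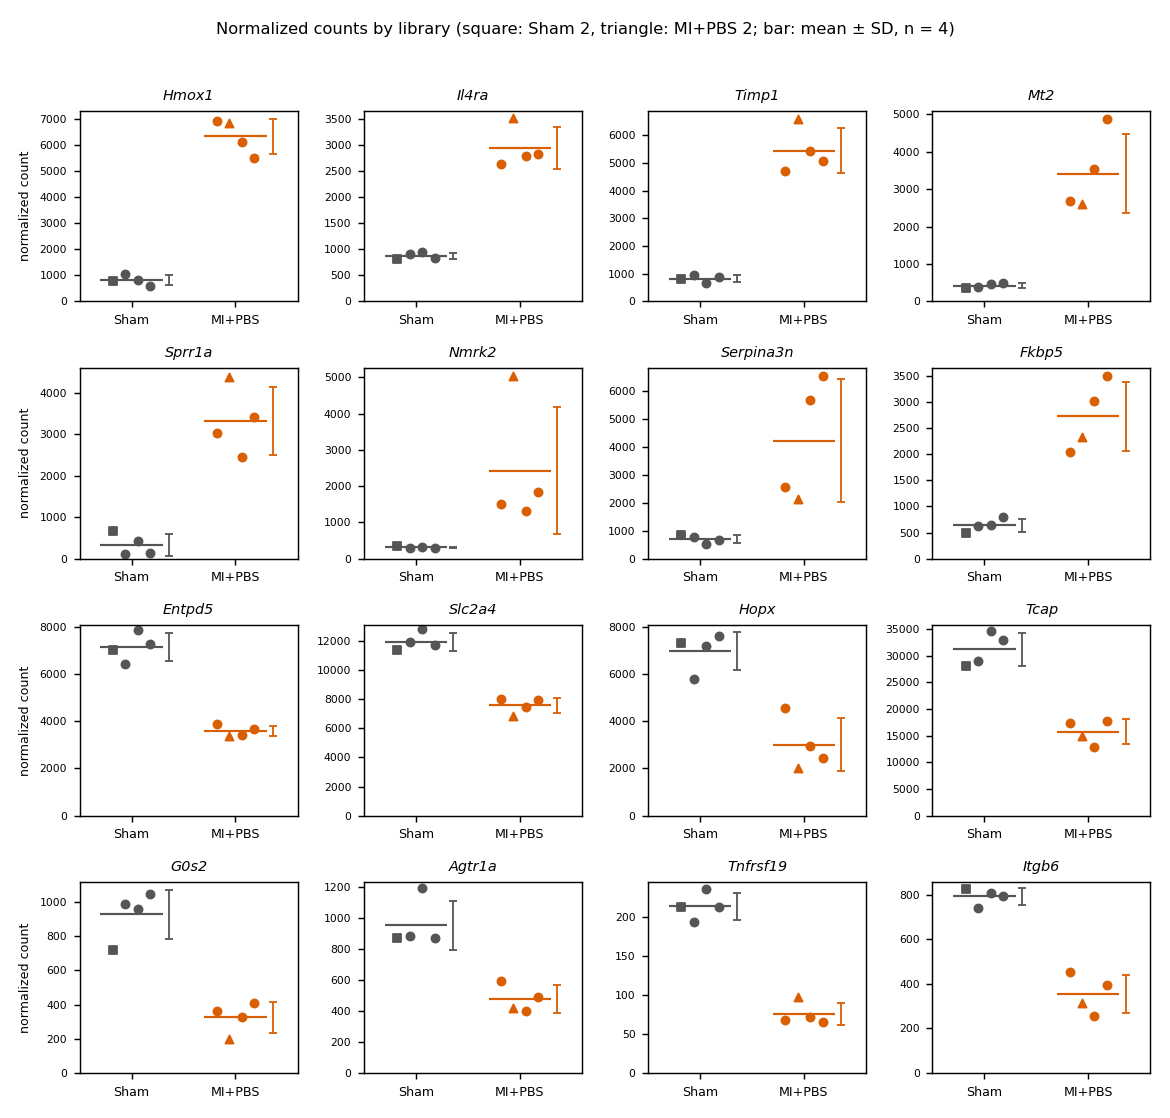
Normalized counts (vertical axis, from 0) of 16 genes in the 4 sham libraries (grey) and the 4 MI+PBS libraries (orange), with the mean and SD of each group. The groups do not overlap in any of the 16 genes. MI+PBS replicate 2 (triangle) is the highest infarcted library in Il4ra, Timp1, Sprr1a, Nmrk2 and Tnfrsf19. It is the lowest in Mt2, Serpina3n, Entpd5, Slc2a4, Hopx and G0s2.

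Genes that define heart muscle fell in part. Of 14 cardiomyocyte identity markers, 9 were lower and 0 higher (64.3% lower, against 21.8% of all genes tested), with a median of -0.52. The regulatory light chain Myl2 stood at 144557, 156469, 179204 and 143402 in sham and at 105451, 75863, 89558 and 103661 in MI+PBS (-0.74 ± 0.13, adjusted p = 0.000624). Myl3 (-0.68 ± 0.13) and the troponin I gene Tnni3 (-0.62 ± 0.11) were lower by similar amounts. The other sarcomere genes of the list did not move alike: the cardiac actin gene Actc1 stood at 225518 to 247674 in sham and at 193778 to 289061 in MI+PBS, with overlap (0.02 ± 0.17, adjusted p = 0.931). Myh6 lay at 585300 to 711982 in sham and at 313453 to 507870 in MI+PBS, without overlap, but did not pass (-0.51 ± 0.21, adjusted p = 0.0683). Without MI+PBS replicate 2, 7 of the 14 markers were lower.

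Cardiac transcription factors were lower or not called, on a list that also holds the metabolic regulators Esrra, Esrrb, Esrrg, Ppara, Ppargc1a and Ppargc1b. Of 18, 12 were lower (66.7%, against 21.8% of all genes tested) and 0 higher, with a median of -0.31. Besides Hopx they included Esrrg, a nuclear receptor that drives mitochondrial genes, at 1633 to 1927 in sham and 896 to 1193 in MI+PBS (-0.68 ± 0.09, adjusted p = 0.000127), and the muscle factor Mef2c at 2319 to 2444 and 1648 to 1960 (-0.41 ± 0.07, adjusted p = 0.000429). The coactivator gene Ppargc1a was not among them: its values were 3394, 3234, 3607 and 3448 in sham and 3457, 2762, 5756 and 4994 in MI+PBS, which overlapped (0.25 ± 0.22, adjusted p = 0.378). Tbx20 also did not pass (-0.09 ± 0.07, adjusted p = 0.311).

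Of 18 potassium channel subunits, which repolarize the heart after each beat, 14 were lower and 0 higher (77.8% lower, against 21.8% of all genes tested), with a median of -0.69. Kcnj3, a subunit of the acetylcholine-gated channel, stood at 1209, 1401, 1122 and 1420 in sham and at 702, 742, 753 and 654 in MI+PBS (-0.85 ± 0.11, adjusted p = 0.000112). Kcnd2, a pore of the transient outward current, stood at 1016 to 1122 in sham and at 525 to 745 in MI+PBS (-0.79 ± 0.11, adjusted p = 0.00014). Abcc9, the regulatory partner of Kcnj8, stood at 13340 to 14349 in sham and at 5273 to 9085 in MI+PBS (-0.85 ± 0.16, adjusted p = 0.000846). Abcc9 was lowest in MI+PBS replicate 2, and 31.1% of the exon bases of Kcnj3 are shared with an antisense gene model.

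At the intercalated disc, where cardiomyocytes join, 9 of 18 genes were lower, against 21.8% of all genes tested, and 4 were higher (22.2%), near the background of 22.6%. The 4 higher were Xirp1, Xirp2, Pdlim3 and the actin linker vinculin, Vcl. Xirp1 and Xirp2 encode actin-binding proteins of the disc. Xirp2 stood at 25313, 19018, 20139 and 22913 in sham and at 37381, 46345, 42238 and 41850 in MI+PBS (0.95 ± 0.15, adjusted p = 0.000282), and Xirp1 at 6057 to 7414 and 10602 to 12735 (0.78 ± 0.08, adjusted p = 3.99e-05). The plaque protein desmoplakin, Dsp, went the other way, from 37628 to 49308 in sham to 28996 to 37464 in MI+PBS (-0.38 ± 0.11, adjusted p = 0.0102).

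The receptor genes Adrb1 and Agtr1a, through which noradrenaline and angiotensin act, were lower. Of 25 adrenergic and cyclic nucleotide genes, 11 were lower (44.0%, against 21.8% of all genes tested) and 4 higher, a share below the 22.6% of all genes. Adrb1, the main beta receptor of cardiomyocytes, stood at 453, 498, 487 and 333 in sham and at 257, 166, 235 and 234 in MI+PBS (-0.99 ± 0.16, adjusted p = 0.000468). The regulatory subunit gene Prkar2a of protein kinase A moved little but evenly, from 3238 to 3280 in sham to 2690 to 2770 in MI+PBS (-0.25 ± 0.04, adjusted p = 0.000348). Of 17 natriuretic, angiotensin and endothelin genes, 6 were higher (35.3%) and 3 lower (17.6%, below background). Agtr1a, the angiotensin II receptor, stood at 870, 883, 1190 and 869 in sham and at 595, 418, 396 and 492 in MI+PBS (-1.01 ± 0.14, adjusted p = 0.000159). The converting enzyme gene Ace went up, from 1858 to 2165 in sham to 2778 to 3064 in MI+PBS (0.54 ± 0.06, adjusted p = 5.65e-05). Of 15 genes listed for muscle atrophy and sarcomere turnover, 9 were lower, against 21.8% of all genes tested, and 0 higher. The count of 9 was 5 without MI+PBS replicate 2. The list holds ubiquitin ligases and also Bag3 and Klhl40, and Bag3 was among the 9. So were Asb2 (-0.61 ± 0.10) and Fbxo32, the atrophy gene atrogin-1 (-0.76 ± 0.15).

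The citric acid cycle feeds electrons to the respiratory chain, and its list here also holds the pyruvate dehydrogenase genes Pdha1, Pdhb, Dlat and Pdhx. All 22 genes of that list were lower, against 21.8% of all genes tested, in a narrow range from -0.67 to -0.32. Sdhd, a membrane anchor of succinate dehydrogenase, stood at 11969, 11827, 13216 and 12101 in sham and at 9918, 8875, 8686 and 8815 in MI+PBS (-0.44 ± 0.06, adjusted p = 0.000154). The fumarase gene Fh1 stood at 11582 to 12770 in sham and at 7929 to 9530 in MI+PBS (-0.46 ± 0.07, adjusted p = 0.000224). Dld, a subunit shared by the dehydrogenase complexes of the list, differed by -0.42 ± 0.06. Of 40 mitochondrial ribosomal proteins, which translate the genes of the organelle, 31 were lower and 0 higher, with a median of -0.32. Mrps35 stood at 1239 to 1286 in sham and at 831 to 948 in MI+PBS (-0.48 ± 0.05, adjusted p = 3.55e-05). Of 26 genes of mitochondrial fusion, fission and import, 16 were lower and 0 higher, led by the fusion genes Opa1 (-0.48 ± 0.07) and Mfn2 (-0.40 ± 0.08).

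Of 14 creatine and adenylate kinase genes, which carry phosphate energy, 7 were lower, against 21.8% of all genes tested, and 3 higher (21.4%), near the background of 22.6%. Ak1, the muscle adenylate kinase, stood at 15940 to 18318 in sham and at 10312 to 12740 in MI+PBS (-0.58 ± 0.08, adjusted p = 0.000102), whereas Gatm, which makes the creatine precursor, stood at 442 to 593 and at 784 to 1055 (0.82 ± 0.11, adjusted p = 0.000138). Of 23 lipid droplet genes, 8 were lower (34.8%) and 2 higher (8.7%, below background, and 1 gene without sham replicate 2). Plin2, which coats droplets, stood at 1630, 1518, 1474 and 1589 in sham and at 3076, 3910, 3712 and 3204 in MI+PBS (1.16 ± 0.11, adjusted p = 2.37e-05). G0s2, an inhibitor of the main triglyceride lipase, stood at 720, 990, 959 and 1048 in sham and at 362, 199, 330 and 411 in MI+PBS (-1.55 ± 0.20, adjusted p = 0.000102). Plin2 and G0s2 thus moved in opposite directions without overlap. Of 23 cholesterol genes, 5 were higher and 1 lower (2 lower without MI+PBS replicate 2), near the background of 22.6% and below that of 21.8%, with the cholesterol exporter Abca1 (0.47 ± 0.08) and the squalene synthase gene Fdft1 (-0.64 ± 0.11) named by the rule.

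Of 29 genes of the secretory pathway and translocon, which make and export secreted protein, 20 were higher and 0 lower (69.0%, against 22.6% of all genes tested), with a median of 0.36. Stt3a, the catalytic subunit that attaches sugar chains to new proteins, stood at 1662, 1791, 1564 and 1608 in sham and at 2641, 3198, 2707 and 2591 in MI+PBS (0.75 ± 0.07, adjusted p = 2.54e-05). Kdelr2, a receptor that returns resident proteins to the endoplasmic reticulum, stood at 1129 to 1230 in sham and at 1843 to 2519 in MI+PBS (0.81 ± 0.08, adjusted p = 3.36e-05). Both were highest in MI+PBS replicate 2. Of 24 ribosome biogenesis genes, 15 were higher and 1, the RNA polymerase I subunit Polr1a, was lower (2 without MI+PBS replicate 2). Nop58, a core protein of the particles that modify ribosomal RNA, stood at 572 to 630 in sham and at 892 to 1099 in MI+PBS (0.68 ± 0.07, adjusted p = 3.53e-05).

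Of 36 cytosolic ribosomal protein genes, 19 were higher (52.8%, against 22.6% of all genes tested) and 0 lower, but 11 were higher without MI+PBS replicate 2 and 12 without sham replicate 2. Rplp0, a stalk protein of the large subunit, stood at 7149, 8081, 8185 and 7447 in sham and at 9418, 10346, 8948 and 10347 in MI+PBS (0.34 ± 0.06, adjusted p = 0.000912). These genes have many near-identical processed copies in the mouse genome, so their counts are uncertain. Genes of the proteasome, which degrades proteins, were mostly not called: of 32, 2 were higher and 2 lower, below both backgrounds (1 and 1 without MI+PBS replicate 2, 1 higher without sham replicate 2), and Psmd2 stood at 4974 to 5234 in sham and at 5151 to 5415 in MI+PBS (0.05 ± 0.04, adjusted p = 0.355). Psme1, part of the interferon-inducible activator, was lower (-0.36 ± 0.07, adjusted p = 0.000813).

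Of 20 cytosolic aminoacyl-tRNA synthetases, which charge transfer RNAs, 12 were higher, against 22.6% of all genes tested, and 1, the aspartyl enzyme Dars, was lower (0 without sham replicate 2), with a median of 0.19. Cars stood at 549, 541, 517 and 547 in sham and at 602, 747, 770 and 672 in MI+PBS (0.37 ± 0.07, adjusted p = 0.0015). Aars stood at 1780 to 1973 in sham and at 2189 to 2318 in MI+PBS (0.27 ± 0.05, adjusted p = 0.000749). Of 27 genes of serine, one-carbon, proline and polyamine synthesis, 16 were higher and 2, the transaminases Gpt2 and Got1, were lower. Mthfd2, a mitochondrial folate enzyme, stood at 84.9, 112, 71.8 and 100 in sham and at 255, 416, 277 and 264 in MI+PBS (1.69 ± 0.18, adjusted p = 4.14e-05). Slc3a2, the heavy chain of amino acid exchangers, stood at 1253 to 1462 in sham and at 2047 to 2285 in MI+PBS (0.67 ± 0.06, adjusted p = 1.49e-05). Asns, asparagine synthetase, had sham values of 91.0, 76.7, 72.9 and 94.6 and MI+PBS values of 183, 269, 241 and 208, again without overlap.

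The promoters of Asns and Gars, the glycyl-tRNA synthetase gene, are shown because both hold the letters of the C/EBP-ATF response element. Through that element the factor ATF4 is known to induce such genes when amino acids run short. Capitals mark TGATGNAA on either strand, Asns is read on the minus strand and Gars on the plus strand (RefSeq, GRCm38.p6), and Gars was chosen for its motif.
Asns (chr6:7693160-7693459): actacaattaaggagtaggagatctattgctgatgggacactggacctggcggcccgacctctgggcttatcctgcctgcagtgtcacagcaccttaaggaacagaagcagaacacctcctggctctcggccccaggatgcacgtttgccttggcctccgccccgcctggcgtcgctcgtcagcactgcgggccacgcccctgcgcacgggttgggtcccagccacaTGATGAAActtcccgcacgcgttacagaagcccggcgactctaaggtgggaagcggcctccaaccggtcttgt
Gars (chr6:55037751-55038050): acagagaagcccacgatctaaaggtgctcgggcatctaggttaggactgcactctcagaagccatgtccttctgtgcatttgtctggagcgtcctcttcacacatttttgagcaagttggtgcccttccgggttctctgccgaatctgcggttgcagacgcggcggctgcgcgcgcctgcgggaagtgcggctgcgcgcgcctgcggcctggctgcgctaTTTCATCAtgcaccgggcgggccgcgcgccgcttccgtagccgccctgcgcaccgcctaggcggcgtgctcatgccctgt
The letters were found in 2.27% of all 10976 promoters. They were found in 5 of the 12 synthetase promoters in the table (Aars, Gars, Iars, Tars and Yars) and in 4 of the 19 of serine, one-carbon, proline and polyamine synthesis (Asns, Got1, Pycr1 and Slc1a4). Matches and changes did not always go together: Iars holds the letters and did not pass (0.09), and Got1 holds them and was lower (-0.40 ± 0.09). Gars stood at 1909, 1829, 1894 and 1969 in sham and at 2303, 2791, 2339 and 2281 in MI+PBS (0.35 ± 0.08, adjusted p = 0.00308).

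Most genes that digest material in the lysosome rose, and most genes of autophagy were lower or not called. Of 32 lysosomal hydrolases and proton pump subunits, 25 were higher (78.1%, against 22.6% of all genes tested), with a median of 0.60. In that list 1 gene, the regulator Tfeb, was lower (0 without MI+PBS replicate 2). Lgmn, an asparagine-specific protease of phagocytes, stood at 4448, 4267, 3692 and 4223 in sham and at 8774, 9418, 7128 and 7306 in MI+PBS (0.97 ± 0.10, adjusted p = 3.68e-05). The glucuronidase gene Gusb (adjusted p = 4.59e-05) was also higher. Of 27 autophagy and mitophagy genes, 11 were lower and 2 higher (40.7% and 7.41%, against 21.8% and 22.6% of all genes tested). Pink1, the kinase that marks damaged mitochondria, stood at 17231, 17056, 20091 and 18316 in sham and at 10981, 9313, 13837 and 13426 in MI+PBS (-0.63 ± 0.12, adjusted p = 0.00114). Ulk1, the kinase that starts autophagy, differed by -0.47 ± 0.09, and the cargo receptor gene Sqstm1 overlapped between groups (0.06 ± 0.09, adjusted p = 0.624).

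Macrophage markers rose together with the lysosomal genes. All 10 were higher, against 22.6% of all genes tested. Their summed counts ran from 18257 to 22022 in sham and from 35408 to 43802 in MI+PBS, with none at 0. Their part in the lysosomal rise was not tested. Of 6 neutrophil markers 5 were higher (83.3%), with sums of 293 to 501 and 674 to 1269. Of 6 myofibroblast markers 5 were higher (83.3%), with sums of 10231 to 18392 and 27628 to 38008. None of the 4 T and NK cell markers and none of the 4 B cell markers tested was called by limma, where 1 T and NK cell marker was higher without MI+PBS replicate 2 or without sham replicate 2. Of 7 endothelial markers 0 were higher and 2 lower (28.6%, against 21.8% of all genes tested), the receptor genes Kdr and Tek, and of 7 fibroblast markers 1 was higher (14.3%, below background, and 0 without either of those libraries) and 2 were lower, Tcf21 and Gsn. The sums of the fibroblast markers ran from 75802 to 92599 in sham and from 53236 to 69972 in MI+PBS, and most of them was Gsn, the actin-severing gelsolin, at 59200 to 77247 and 31919 to 49754.

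**Figure D3:**
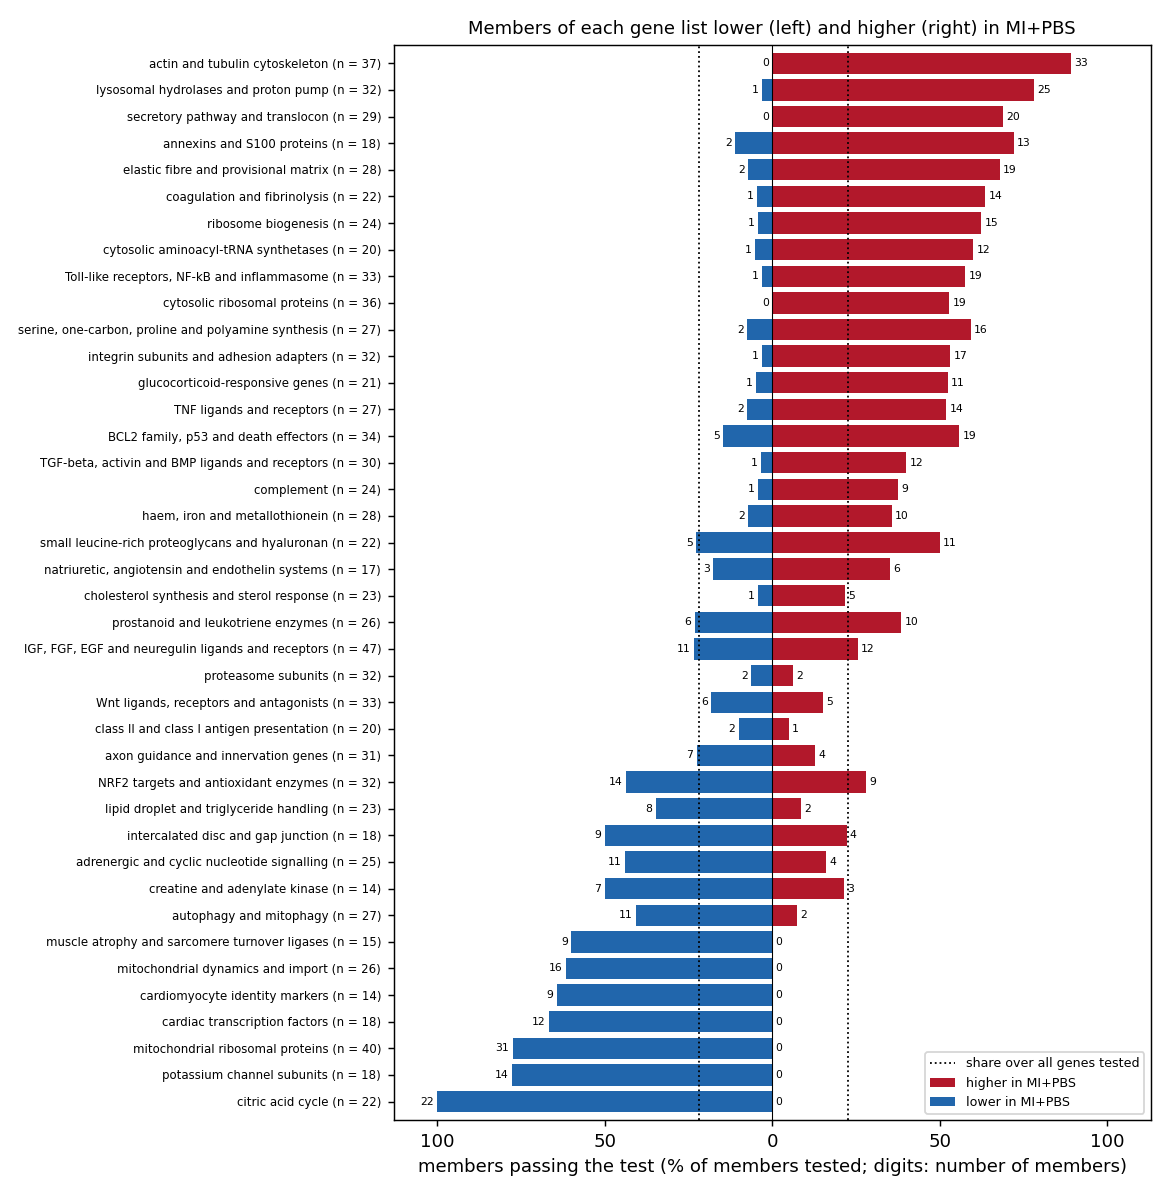
Share of the members of each of 40 gene lists that were lower (blue, to the left) or higher (red, to the right) in MI+PBS, in percent of the members tested, with the number of members at the bar ends and dotted lines at the shares over all genes tested. The citric acid cycle list, which includes pyruvate dehydrogenase genes (22 of 22 lower), stands at the bottom and the actin and tubulin cytoskeleton (33 of 37 higher) at the top.

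Among the 40 gene lists, cell type markers aside, the actin and tubulin cytoskeleton had the largest share of rises. Of its 37 genes, 33 were higher and 0 lower (89.2% higher, against 22.6% of all genes tested), with a median of 0.94. Actn1, the alpha-actinin that bundles stress fibres, stood at 1540, 1673, 1404 and 1688 in sham and at 3561, 4724, 3548 and 3277 in MI+PBS (1.25 ± 0.10, adjusted p = 1.14e-05). Vim, the intermediate filament of mesenchymal cells, stood at 11808, 13227, 10454 and 12649 in sham and at 24326, 32639, 24470 and 24451 in MI+PBS (1.13 ± 0.10, adjusted p = 2.05e-05). In both, replicate 2 was the highest infarcted heart and the other 3 lay close together. Tpm1, the tropomyosin of heart muscle, did not pass, with 164899 to 175277 in sham and 144755 to 162810 in MI+PBS (-0.13 ± 0.12, adjusted p = 0.415). Of 18 annexin and S100 genes, which bind calcium and membranes, 13 were higher (72.2%). In the same list 2 were lower (11.1%, below the background of 21.8%, and 1 gene without MI+PBS replicate 2). Anxa2 stood at 3311 to 4451 in sham and at 8124 to 11485 in MI+PBS (1.23 ± 0.11, adjusted p = 1.84e-05), whereas S100a1, the member found in cardiomyocytes, stood at 11355 to 12732 and at 7903 to 9879 (-0.42 ± 0.09, adjusted p = 0.00189).

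Of 32 integrin subunits and adapters, by which cells grip the matrix, 17 were higher (53.1%, against 22.6% of all genes tested) and 1 lower. Itga5, the fibronectin receptor subunit, stood at 2139, 2218, 2069 and 2529 in sham and at 5092, 7468, 5233 and 5251 in MI+PBS (1.35 ± 0.13, adjusted p = 2.85e-05). Itgb6, an epithelial subunit that can activate latent TGF-beta, was the 1 lower, at 825, 742, 810 and 796 in sham and 453, 316, 256 and 396 in MI+PBS (-1.19 ± 0.15, adjusted p = 9.67e-05). Neither overlapped between groups.

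Of 28 genes of elastic fibres and provisional matrix, 19 were higher (67.9%, against 22.6% of all genes tested) and 2 lower (7.14%). Fn1, the fibronectin of the provisional matrix, stood at 14927, 16313, 12509 and 12603 in sham and at 31208, 49933, 33935 and 36254 in MI+PBS (1.41 ± 0.17, adjusted p = 7.67e-05). Sparc, which guides collagen assembly, stood at 18257 to 26295 in sham and at 45039 to 57803 in MI+PBS (1.14 ± 0.14, adjusted p = 7.09e-05), and Efemp2, needed to build elastic fibres, at 496 to 677 and at 1096 to 1566 (1.11 ± 0.11, adjusted p = 2.61e-05). Of 22 small proteoglycan and hyaluronan genes, 11 were higher and 5 lower (22.7%, near the background of 21.8%, and 3 genes without MI+PBS replicate 2 or sham replicate 2). Tnfaip6, which links hyaluronan chains in inflamed tissue, stood at 71.8, 60.7, 52.8 and 56.1 in sham and at 170, 258, 226 and 314 in MI+PBS (1.96 ± 0.20, adjusted p = 2.97e-05). Has2, the hyaluronan synthase, differed by 1.46 ± 0.15 and the collagen-binding proteoglycan gene Bgn by 0.93 ± 0.13, but Dcn, decorin, overlapped, at 25318 to 28681 in sham and 21202 to 27961 in MI+PBS (-0.15 ± 0.11, adjusted p = 0.283).

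Of 30 TGF-beta, activin and BMP genes, 12 were higher (40.0%, against 22.6% of all genes tested) and 1 lower (3 lower without MI+PBS replicate 2). Inhbb, the activin B subunit, stood at 106, 84.1, 96.2 and 76.8 in sham and at 228, 433, 278 and 318 in MI+PBS (1.75 ± 0.20, adjusted p = 4.65e-05). Tgfb1 stood at 508 to 603 in sham and at 799 to 1099 in MI+PBS (0.80 ± 0.09, adjusted p = 4.91e-05). The activin-binding protein gene Fstl3, of whose exon bases 47.3% are shared with an antisense gene, differed by 1.42 ± 0.17. Of 33 Wnt genes 5 were higher and 6 lower (4 lower without MI+PBS replicate 2 or without sham replicate 2), both shares below background. Of their secreted antagonists Sfrp2 stood at 304 to 421 in sham and 667 to 852 in MI+PBS (1.11 ± 0.12, adjusted p = 4.59e-05) and Wif1 at 430 to 733 and 281 to 339 (-0.85 ± 0.15, adjusted p = 0.000631).

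Clotting and fibrinolysis genes were mostly higher, 14 of 22 (63.6%, against 22.6% of all genes tested). The inhibitor Tfpi was the 1 lower (4.55%, against 21.8%). Plaur, the urokinase receptor, stood at 82.4 to 110 in sham and at 253 to 561 in MI+PBS (1.92 ± 0.22, adjusted p = 5.79e-05). Every infarcted heart lay above every sham heart in this gene.

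Of 33 Toll-like receptor, NF-kB and inflammasome genes, which sense microbes and damage, 19 were higher (57.6%, against 22.6% of all genes tested) and 1, the kinase Irak1, was lower. Clec4d, a lectin receptor of myeloid cells, stood at 93.0, 115, 107 and 71.9 in sham and at 409, 562, 515 and 557 in MI+PBS (5.28-fold, adjusted p = 8.19e-06). Tlr13, a sensor of bacterial ribosomal RNA in mice, stood at 222 to 333 in sham and at 835 to 1330 in MI+PBS (1.85 ± 0.20, adjusted p = 3.72e-05). Nfkb1, a subunit of the factor itself, overlapped (0.01 ± 0.05, adjusted p = 0.868). Of 24 complement genes 9 were higher (37.5%) and 1 lower: the receptor gene C5ar1 stood at 239 to 375 in sham and at 868 to 1448 in MI+PBS (1.80 ± 0.25, adjusted p = 0.000151), whereas C3, the central component, stood at 22713, 26366, 23177 and 19708 and at 12644, 17580, 22643 and 26966, with overlap (-0.25 ± 0.22, adjusted p = 0.386).

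Antigen presentation was the immune list with the fewest calls, 1 of 20 higher (Cd80) and 2 lower (Cd83 and Tap2). Both shares were below those of all genes tested, 22.6% higher and 21.8% lower. Without MI+PBS replicate 2 or without sham replicate 2, 1 gene was lower. The infarcted hearts did not behave alike here. B2m, the light chain of class I molecules, stood at 8766, 10176, 6378 and 10161 in sham and at 11910, 7770, 5903 and 6034 in MI+PBS (-0.20 ± 0.25, adjusted p = 0.534). H2-Aa, a class II chain added after its values were seen, stood at 922 to 980 in sham and at 1386, 1025, 508 and 662 in MI+PBS (-0.19 ± 0.26, adjusted p = 0.585). MI+PBS replicate 1 was the highest and replicates 3 and 5 the lowest infarcted hearts in both genes.

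Of 26 prostanoid and leukotriene genes, 10 were higher (38.5%, against 22.6% of all genes tested) and 6 lower (23.1%), near the background of 21.8%. Ptger2, a prostaglandin E2 receptor, stood at 18.2, 18.1, 11.6 and 14.8 in sham and at 57.3, 66.0, 55.8 and 44.4 in MI+PBS (1.78 ± 0.20, adjusted p = 4.56e-05), and Alox5ap, which hands arachidonic acid to the leukotriene pathway, at 418 to 498 and 896 to 1172 (1.18 ± 0.14, adjusted p = 5.52e-05). Of 27 TNF ligands and receptors, 14 were higher (51.9%) and 2 lower (7.41%, below background). Tnfrsf12a, the receptor of the cytokine TWEAK, stood at 863 to 1258 in sham and at 2010 to 3009 in MI+PBS (1.29 ± 0.16, adjusted p = 9.12e-05). The 2 lower were Tnfsf10, the death ligand TRAIL, at 498 to 697 in sham and 237 to 291 in MI+PBS (-1.22 ± 0.12, adjusted p = 3.03e-05), and the receptor gene Tnfrsf19 at 194 to 237 and, in MI+PBS, below 100 in every library (-1.51 ± 0.18, adjusted p = 5.78e-05).

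Of 32 NRF2 targets and antioxidant enzymes, 14 were lower (43.8%, against 21.8% of all genes tested) and 9 higher (28.1%, against 22.6%). Slc7a11, the cystine importer for glutathione synthesis, stood at 13.1, 14.9, 15.8 and 14.8 in sham and at 93.3, 91.2, 74.4 and 52.2 in MI+PBS (2.30 ± 0.22, adjusted p = 2.2e-05). Sod2, the mitochondrial superoxide dismutase, stood at 14110 to 17007 in sham and at 9153 to 11196 in MI+PBS (-0.57 ± 0.08, adjusted p = 0.00014). Txn1, cytosolic thioredoxin, stood at 1481 to 1588 in sham and at 2151 to 2516 in MI+PBS (0.57 ± 0.06, adjusted p = 3.09e-05). Of 34 BCL2 family, p53 and death genes, 19 were higher (55.9%) and 5 lower (14.7%, below background, and 3 genes without MI+PBS replicate 2). Ripk3, the kinase of necroptosis, stood at 136, 154, 133 and 138 in sham and at 310, 466, 288 and 301 in MI+PBS (1.25 ± 0.14, adjusted p = 4.66e-05), whereas Mcl1, a survival factor of the list, overlapped (0.08 ± 0.06, adjusted p = 0.359). Of 28 haem, iron and metallothionein genes 10 were higher (35.7%) and 2, the haem synthesis genes Alas1 and Fech, lower (7.14%, below background, and 1 gene without MI+PBS replicate 2).

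Of 21 genes that respond to glucocorticoids, 11 were higher (52.4%, against 22.6% of all genes tested), 9 did not pass and 1, the receptor gene Nr3c1, was lower (2 without sham replicate 2). Fkbp5, which binds that receptor's chaperone complex, stood at 489, 621, 654 and 796 in sham and at 2047, 2340, 3027 and 3512 in MI+PBS (2.08 ± 0.20, adjusted p = 2.7e-05). Angptl4, an inhibitor of lipoprotein lipase, stood at 204, 296, 259 and 150 in sham and at 651, 967, 1422 and 1508 in MI+PBS (2.29 ± 0.25, adjusted p = 4.16e-05). Pdk4, the kinase that closes pyruvate off from oxidation, stood at 5951, 4452, 8921 and 6374 in sham and at 12140, 10454, 49993 and 30708 in MI+PBS (1.75 ± 0.43, adjusted p = 0.00505). In all 3 genes replicates 3 and 5 were the highest infarcted hearts. Tsc22d3, the leucine zipper GILZ on the same list, overlapped (0.23 ± 0.17, adjusted p = 0.278).

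Of 47 IGF, FGF, EGF and neuregulin genes 12 were higher and 11 lower (25.5% and 23.4%, near the backgrounds of 22.6% and 21.8%), and of 31 axon guidance genes 4 were higher (12.9%, below background) and 7 lower (22.6%). Osmr, the oncostatin M receptor, stood at 920 to 1120 in sham and at 1733 to 2284 in MI+PBS (adjusted p = 1.71e-05), and Hbegf, a ligand of the EGF receptor, at 482 to 617 and 995 to 1788 (1.17 ± 0.14, adjusted p = 8.14e-05). Plxnb1, a semaphorin receptor, stood at 2390 to 3075 in sham and at 1070 to 1739 in MI+PBS (-0.97 ± 0.13, adjusted p = 0.000129), and Sema3f, a semaphorin, at 577 to 691 and 910 to 1363 (0.80 ± 0.10, adjusted p = 9.71e-05).

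The infarcted hearts differed more among themselves than the sham hearts did. Over 12362 genes with a mean of at least 50, the median SD of log2 values was 0.14 in MI+PBS and 0.098 in sham, and 69.6% of genes had the larger SD in MI+PBS. MI+PBS replicate 2 lay farthest from sham in 64.4% of the genes called higher and 57.6% of those called lower. Averaged over the members of a list, it lay farthest from the sham mean in 29 of the 40 lists, replicate 5 in 6, replicate 3 in 5 and replicate 1 in 0. In the citric acid cycle list the mean departures of replicates 1, 2, 3 and 5 were -0.38, -0.64, -0.41 and -0.41 log2 units. In antigen presentation they were 0.43, 0.01, -0.54 and -0.34, on both sides of the sham libraries at -0.27 to 0.13. Glucocorticoid-responsive genes gave 0.60, 0.42, 0.91 and 0.79, so that replicate 2 was there the nearest to sham. The mean departures of the groups did not overlap in 28 of the 40 lists.

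**Figure D4:**
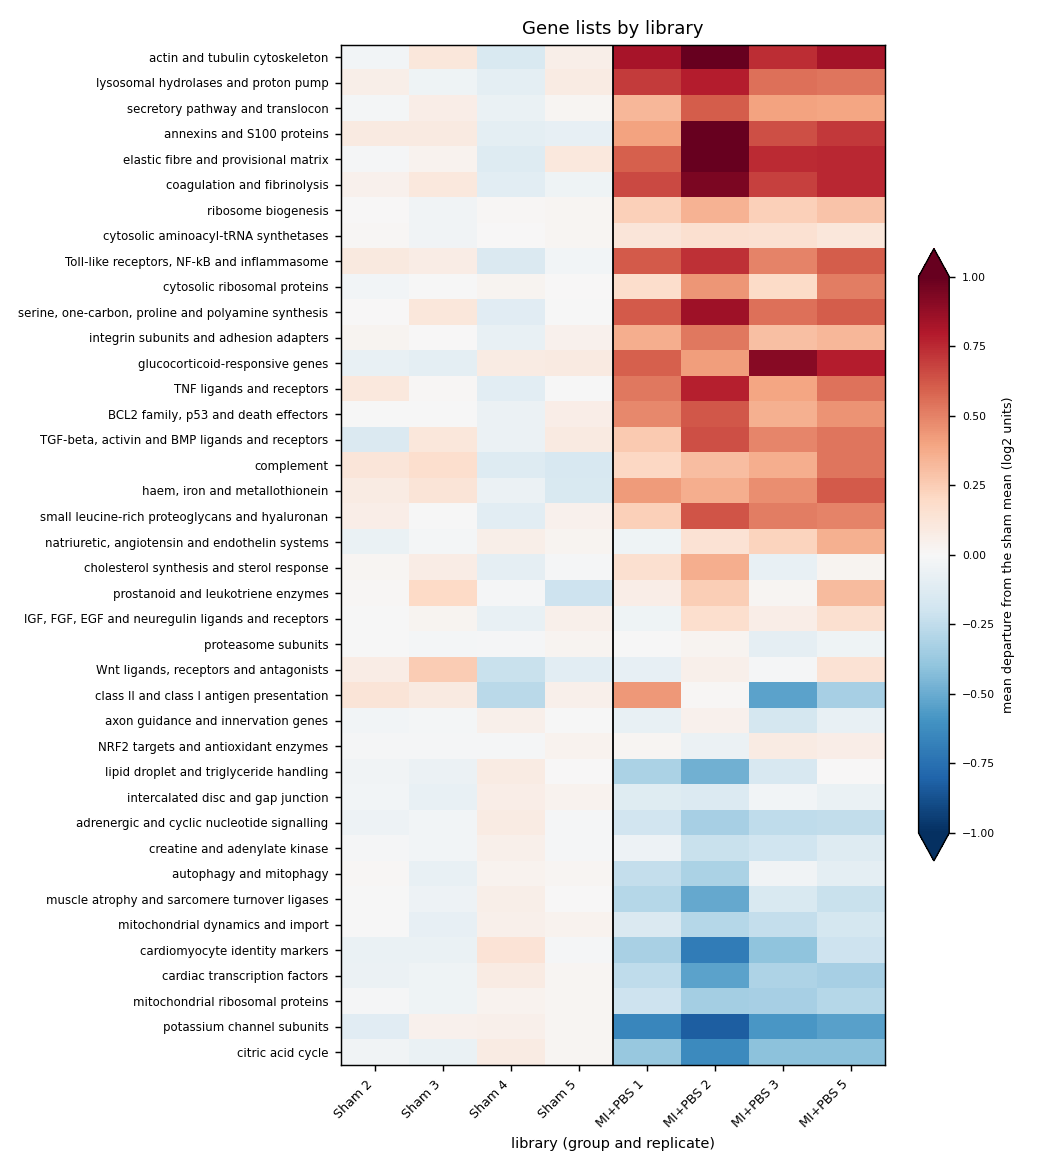
Mean departure of each of 40 gene lists from the sham mean, in log2 units (colour, red higher and blue lower), in the 4 sham and 4 MI+PBS libraries, with lists in the order of the bars by list. MI+PBS replicate 2 has the deepest colour in most rows; antigen presentation runs from 0.43 in replicate 1 to -0.54 in replicate 3.

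Ratios of 2 genes within a library do not depend on scaling between libraries, and 12 such pairs were tested with two-sided exact permutation tests over the 70 assignments of 4 and 4 libraries. The smallest p the design allows is 0.0286. At that limit, and without overlap, stood 9 pairs. Their p after Benjamini-Hochberg adjustment over the 12 was 0.0381, a value that depends on how many pairs reached the limit. The glucose transporter ratio Slc2a1 over Slc2a4 had log2 values of -4.19, -4.22, -4.35 and -4.20 in sham and -3.19, -2.58, -2.92 and -2.97 in MI+PBS, a difference of 1.32 (exact permutation, adjusted p = 0.0381). Lactate dehydrogenase A over B shifted by 0.74, with Ldhb itself lower (-0.70 ± 0.09) and Ldha not called (0.03 ± 0.07, adjusted p = 0.732). Hexokinase Hk1 over Hk2 shifted by 0.35, with Hk2 lower (-0.34 ± 0.07). Skeletal over cardiac alpha-actin (Acta1 over Actc1) shifted by 0.94, type I over type III collagen (Col1a1 over Col3a1) by 0.43 and Timp1 over the matrix-bound inhibitor gene Timp3 by 2.35. B-type over A-type natriuretic peptide (Nppb over Nppa) shifted by 1.15, with Nppb higher (1.88 ± 0.39) and Nppa not called (0.72 ± 0.33, adjusted p = 0.0979). The 5 atrium markers, Nppa among them, took 0.24% to 0.466% of counts in sham and 0.245% to 0.828% in MI+PBS. Of their counts Nppa alone held 32087 to 69847 in sham and 41303 to 130915 in MI+PBS. Over the 5 markers 0 were called higher and 0 lower, with a median of -0.546 and a range from -0.805 to 2.657. The part of atrial tissue in this ratio was not tested. Cpt1a over Cpt1b, the liver and muscle forms of the enzyme that admits fat to mitochondria, shifted by 0.72, although 81.4% of the exon bases of Cpt1b belong also to another gene model.

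Of the other pairs, 1 at the limit moved down and 3 did not pass. Tgfb1 over Tgfb2 had log2 values of 0.13, 0.10, 0.12 and 0.08 in sham and 0.02, -0.17, -0.16 and -0.27 in MI+PBS, so both ligands rose and Tgfb2 rose more. Slow over fast myosin heavy chain (Myh7 over Myh6), whose rise marks pressure overload in rodents, had -3.95, -3.84, -3.85 and -4.01 in sham and -3.72, -3.60, -4.001 and -3.56 in MI+PBS. Replicate 3 overlapped with sham, and the difference of 0.20 did not pass (exact permutation, adjusted p = 0.171). Kcnip2 over Kcnd3, the accessory and pore subunits of the transient outward current, differed by -0.28 (exact permutation, adjusted p = 0.218), and both genes were lower (-0.79 ± 0.16 and -0.51 ± 0.08). Slow skeletal over cardiac troponin I (Tnni1 over Tnni3) differed by -0.33 (exact permutation, adjusted p = 0.714), with Tnni1 at 4.9 to 62.8 counts in all 8 libraries.

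**Figure D5:**
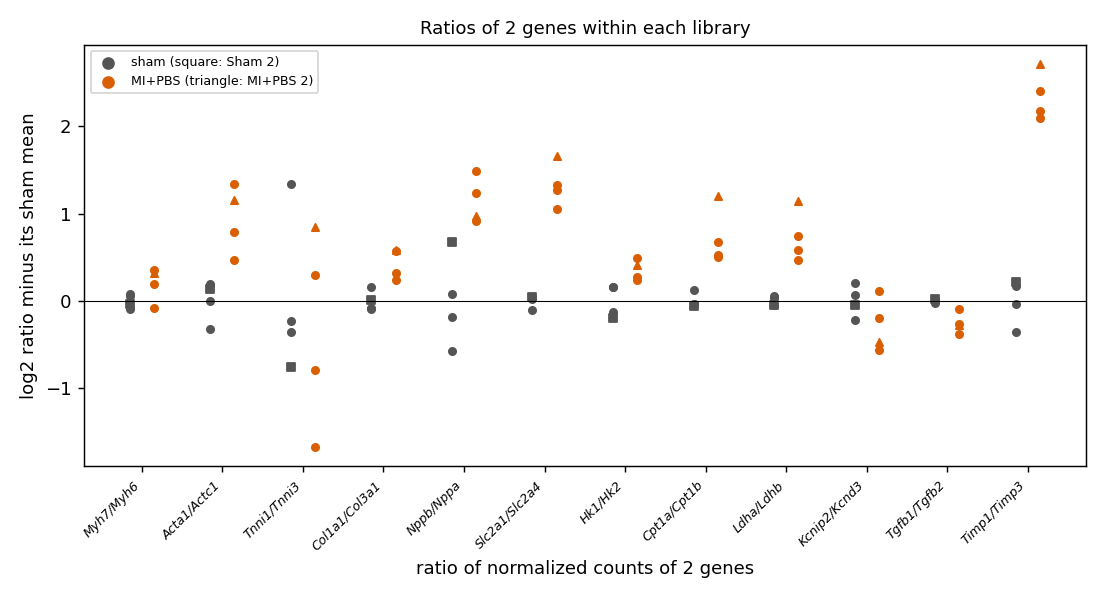
Log2 ratio of 2 genes within each library, minus the sham mean of that ratio (vertical axis), for 12 pairs in 4 sham (grey) and 4 MI+PBS libraries (orange). The groups are apart in 9 pairs, most in Timp1/Timp3 (2.35 log2 units), and overlap in Myh7/Myh6, Tnni1/Tnni3 and Kcnip2/Kcnd3.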

How the data were processed

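RNA from 12 hearts was measured by poly-A sequencing, and 8 libraries are compared here. The submitters' processing notes name cutadapt, STAR 2.4.2a, HTSeq, DESeq2 1.10.1 and the build mm10, without saying which did what. The deposited values are normalized read counts per gene, a signal divided by a size factor per library per the file headers and the values. Whole reads (within 0.0055 normalized counts) were recovered for 11 libraries, with 99.95% to 100.0% of values whole and totals of 20238512 to 22742027. Sham replicate 2, normalized total 21695925, gave none. The deposited counts cover 15799 to 15898 genes detected per library. The strand setting of the counting is not given in the sources used here.

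Values were tested as log2(value + 1), so fold changes of low genes are understated, for genes with a mean of at least 5 over the 12 libraries, with limma 3.58.1 (intensity trend, R 4.3.3). All 3 groups shared 1 fit, which gives more degrees of freedom for the spread, and p-values were adjusted by the Benjamini-Hochberg method at 0.05. Replicates are separate animals per the design text. Alternatives were other pseudocounts, filters, scaling, variance models and library weights, a stricter threshold, a term for the replicate number, each library left out, and count tests without sham replicate 2 (DESeq2 1.42.0, edgeR 4.0.16). The steps were tested on simulated data.

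Genes were named by rule: the 10 rises and 10 falls of smallest p (mean of at least 50), the 10 largest of each among genes with a mean of at least 1000, up to 3 members of smallest p and 2 of highest mean in each of 40 lists, the 8 genes of largest SD in each group, and the genes of 12 ratios. Genes outside it (single members that account for a small count, and Mt1, Gars, Mb, Gsn, Iars, Got1 and H2-Aa) were chosen after their values were seen. Members and lists were chosen with earlier results of these data known. Of 1134 list symbols 1123 were in the table. Exon overlap was taken from GENCODE M21, in which all 163 rule genes and additions named in the text were found and 19 shared over 10% of their exon bases. Some items are not reported here. Promoters came from RefSeq (GRCm38.p6). Python 3.11.15, numpy 2.4.6, pandas 2.3.3, scipy 1.17.1 and matplotlib 3.10.9 were used.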

Additional observations from a re-analysis of the deposited data

Results flagged for a closer look

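In 350 groups of 4 libraries (each printed gene or ratio in each group), the gap between the highest or lowest library and its nearest neighbour was divided by the range of the group, and 26 groups passed the 95% limit of Dixon's test. Chance flags about 1 group in 20. MI+PBS replicate 2 was the library apart in 10 of the 26 and sham replicate 4 in 8.

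MI+PBS replicate 2 stood above the other infarcted hearts in Itga5 (0.933), Kdelr2 (0.832), Mthfd2 (0.861), Nmrk2 (0.858), Nop58 (0.89), Ripk3 (0.878), Tnfrsf19 (0.83), Vim (0.983) and Gars (0.886), with the gap as a share of the range in brackets. It stood below them in Mb (0.915), the myoglobin gene, with 144089 counts against 187861 to 191916. In Vim it held 32639 counts against 24326 to 24470. Of these 10 genes, 8 were called higher after infarction, and Mb and Tnfrsf19 were called lower.

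Sham replicate 4 stood above the other sham hearts in Agtr1a (0.957), Cpt1a (0.925), Cpt1b (0.87), Esrrg (0.888), Fdft1 (0.87), Myh6 (0.86) and Tpm1 (0.979), and in the ratio Cpt1a over Cpt1b (0.891). Sham replicate 3 stood above the others in Gm1821 (0.994), Ptprn2 (0.866) and Tnni1 (0.839) and below them in Sqstm1 (0.93). Sham replicate 2 stood above in Scgb1a1 (0.998). MI+PBS replicate 1 stood above the other infarcted hearts in Psme1 (0.841) and Sdhd (0.846), and MI+PBS replicate 3 below them in Gm1821 (0.863).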

How the results depend on the processing

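The number of genes passing stayed within 1.5 times of 6616 under every alternative run. Leaving out 1 library gave 5638 (without sham replicate 4) to 6424 (without MI+PBS replicate 3), and genes past 1 log2 unit ran from 855 (without MI+PBS replicate 2) to 1107 (without MI+PBS replicate 1). DESeq2 gave 6080 and edgeR 5834, both without sham replicate 2, and no filter gave 6693. At an adjusted p of 0.01 the lower genes numbered 2025, by the construction of the threshold. Whether replicate numbers pair the samples cannot be decided here, because the groups share only the numbers 2, 3 and 5. Deviations of same-numbered sham and MI+PBS libraries correlated at 0.054, -0.115 and -0.169, and those of unlike numbers at -0.325 to 0.223. With the replicate number as a block 5727 genes passed. Of the 137 named genes past the threshold 134 passed it under every alternative but that of 0.01, the exceptions being Cpt1b, Tap2 and Timp3, and none reversed. Under TMM scaling the median of all genes stayed at -0.01. Counts over lists without MI+PBS replicate 2 or sham replicate 2 were chosen after seeing the data, as was the fit without MI+PBS replicate 2 and the Agrin-treated replicate 1, with 5950 genes passing. Calls were fewer at low level, and the part of depth in this was not tested: of the 2544 genes with means between 5 and 50, 12.5% were higher and 7.27% lower, smaller shares than over all genes.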

Other observations

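The genes of this section were picked because their values differed most between animals of a group. A spread of that size makes a call unlikely, so the lack of one says nothing about the operation. Gm1821 stood at 2.02, 504, 3.17 and 4.93 in sham and at 472, 512, 7.23 and 546 in MI+PBS. Ptprn2, a receptor-type phosphatase of secretory granules, stood at 55.6, 389, 5.28 and 3.94 in sham and at 3.89, 214, 242 and 548 in MI+PBS. Each was high in some animals and near absent in others within both groups, and neither was called.

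Other genes of that kind divided other animals. Iqcg stood at 16.2, 328, 769 and 15.8 in sham and at 10.7, 210, 304 and 8.87 in MI+PBS, with 48.1% of its exon bases shared with other gene models. AA465934 stood at 363, 423, 12.7 and 19.7 in sham and at 309, 10.7, 258 and 13.8 in MI+PBS.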
